A study of Mus musculus with 8 samples.

Results

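GABA-A receptors are chloride channels opened by the transmitter GABA, each built from several subunits that are drawn from a family of related genes. The genes described are Gabra2, Gabra3, Gabra4, Gabrb1, Gabrb2, Gabre, Gabrg1 and Gabrp, which are 8 of the 27036 genes of a count table from mouse prostate and 8 of the 19 GABA-A receptor subunit genes in it. Gabra4 was selected on its measured rise in both prostate adenocarcinoma samples, so its levels there are given as a description and were not tested. The other 7 belong to the same family and were also listed with earlier results of these data known. In these tissues Gabra4, Gabrb1 and Gabrp carried nearly all of the subunit RNA of the adenocarcinomas, whereas Gabra3 and Gabrp led in normal prostate.

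Bulk RNA sequencing was performed on 3 control prostates (WT), 3 prostates with prostatic intraepithelial neoplasia (PIN) and 2 prostatic adenocarcinomas (PCa). PIN and PCa came from hARtg-Osr1Cre mice, in which a human androgen receptor transgene in the Rosa26 locus is switched on by Cre recombinase made under the promoter of Osr1, a gene of embryonic urogenital cells. The study describes these mice as R26 mTmG/hAR:Osr1 Cre/+ and its WT mice as R26 mTmG/+:Osr1 Cre/+, so that Cre and the fluorescent mTmG reporter allele are common to all groups, on a mixed C57BL/6 and 129S1/SvImJ background. The study states that PIN and PCa tissues were checked by microscopy and consisted mostly of atypical or tumor cells. The labels give no age, and the study calls the WT mice age matched without stating the ages for these libraries. In its transgenic mice PIN lesions began at a younger age than PCa lesions. Age may therefore differ between the PIN and PCa libraries and cannot be told apart from lesion stage. The labels do not say that the libraries of a group came from separate animals, so p-values measure the spread between libraries, and every level is a mean over all cells of a tissue piece, in which fewer cells of a type and less RNA per cell cannot be told apart.

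Total counts on genes ranged from 21751803 to 29730420 over the 8 libraries. WT 1 stood apart, with a summed level of 6 seminal vesicle markers of 15663 CPM, the counts scaled to a common library size, against 0.634 and 0.769 in WT 2 and WT 3, 43.9 to 88.7 in PIN and 883 to 3840 in PCa. The 5 smooth muscle markers summed to 1602 to 4174 CPM in WT, 2759 to 5006 in PIN and 16.5 to 27.8 in PCa, and the 8 luminal markers to 10142 to 30973, 11248 to 17567 and 2460 to 3473. The library numbers in the labels form 3 series, with WT 1 alone, WT 2 and WT 3 together, and all PIN and PCa libraries in the last, so that series and condition cannot be told apart against WT but PCa and PIN lie within a single series.

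In the brain, alpha and beta subunits form the pocket that binds GABA, and a gamma subunit adds benzodiazepine sensitivity and ties the channel to the synapse through gephyrin. The alpha-4 subunit is known from channels outside the synapse. The pi subunit, encoded by Gabrp, is found mostly outside the brain, in epithelia and reproductive tissues. Many subunit genes lie in clusters, and the members fell on chromosomes 5, 11 and X in the mm9 build, with no member overlapping another gene of the table. Gabrg1, Gabra2, Gabra4 and Gabrb1 lay in a single cluster on chromosome 5, from 71142286 to 72529628. Gabra4 (ENSMUSG00000029211) spanned 71960973 to 72049547 on the minus strand and Gabrb1 (ENSMUSG00000029212) spanned 72091171 to 72529628 on the plus strand, so the pair pointed away from each other with the starts given in the table lying 41624 bases apart. Gabra2 (ENSMUSG00000000560) spanned 71352296 to 71487088 and Gabrg1 71142286 to 71233856, both on the minus strand. Gabrp (ENSMUSG00000020159) lay on chromosome 11 from 33450781 to 33478959 on the minus strand and Gabrb2 at 42233259 to 42446092 on the plus strand. Gabra3 and Gabre lay on chromosome X at 69678020 to 69902187 and 69501338 to 69520142, both on the minus strand.

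The 250 bases before the transcription start are shown for the 3 subunit genes with the highest levels in PCa and for Gabra2, the gene of the Gabra4 cluster that was called lower there. The sequences are from RefSeq (GRCm38.p6), which held a window for all 8 members, and each had a single exact match in mm9. The window of Gabra4 lay at chr5:72049548-72049797 on the minus strand, that of Gabrb1 at chr5:72090921-72091170 on the plus strand, that of Gabrp at chr11:33478958-33479207 on the minus strand and that of Gabra2 at chr5:71487089-71487338 on the minus strand. Capitals mark the matches, on either strand, to the 6 motifs searched. AGAACA is the core of the androgen receptor element and CTTTGAT is the core bound by TCF/LEF factors, which was also searched for in its form CTTTGAA. The E-box was searched for as CACGTG, the TATA box was searched for as TATAAA, and the GC box was searched for as GGGCGG. In the windows shown, no match overlapped another.
Gabra4: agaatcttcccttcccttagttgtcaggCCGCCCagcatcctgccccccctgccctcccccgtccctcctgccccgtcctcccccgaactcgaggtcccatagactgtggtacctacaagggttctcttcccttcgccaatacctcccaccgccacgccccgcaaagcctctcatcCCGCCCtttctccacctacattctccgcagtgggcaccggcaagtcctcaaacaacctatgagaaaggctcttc
Gabrb1: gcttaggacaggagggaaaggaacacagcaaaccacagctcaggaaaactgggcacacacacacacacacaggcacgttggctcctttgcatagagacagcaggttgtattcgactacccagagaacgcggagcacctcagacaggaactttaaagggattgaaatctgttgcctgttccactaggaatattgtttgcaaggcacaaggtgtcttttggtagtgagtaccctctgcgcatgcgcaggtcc
Gabrp: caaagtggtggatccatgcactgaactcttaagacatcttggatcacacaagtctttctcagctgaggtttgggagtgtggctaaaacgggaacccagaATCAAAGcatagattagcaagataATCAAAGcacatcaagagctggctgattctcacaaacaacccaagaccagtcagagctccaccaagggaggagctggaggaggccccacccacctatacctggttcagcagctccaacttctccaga
Gabra2: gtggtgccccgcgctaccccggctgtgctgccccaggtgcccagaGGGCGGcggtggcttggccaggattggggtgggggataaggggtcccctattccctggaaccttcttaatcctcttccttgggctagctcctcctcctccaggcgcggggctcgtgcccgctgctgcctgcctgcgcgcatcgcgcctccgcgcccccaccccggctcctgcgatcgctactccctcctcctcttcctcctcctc

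The windows differed in composition. That of Gabra4 was 61.2% G and C with 2 GC boxes, that of Gabra2 was 70% G and C with 1, and that of Gabrb1 was 50.8% G and C and held none of the 6 motifs. Over the 32851 promoter windows of the same length the median was 52.4%, and 32.7% held at least 1 GC box. The window of Gabrp held 2 CTTTGAT matches, both written as ATCAAAG on its strand. At least 1 such match was found in 3.21% of all windows and 2 or more in 0.0822%, the latter in 27 windows. AGAACA was absent from the 4 windows shown and present in 16.1% of all windows, CTTTGAA in 4.46%, CACGTG in 6.02% and TATAAA in 12.4%. RefSeq lists another Gabrb1 start, at position 72049160, which lies within the span of Gabra4 on the opposite strand, close to the Gabra4 start. The 250 bases before it, which are not shown, were 64.4% G and C and held none of the 6 motifs either. How the counting treated strand is not given in the sources used here, so reads from this stretch cannot be assigned to either gene with certainty.

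Gabra4, the alpha-4 subunit gene, was detected at a few CPM or less in every WT and PIN library and was abundant in PCa. Its levels, in CPM after adjustment of library sizes, were 1.58, 0.68 and 1.17 in WT 1 to 3, 2.09, 3.00 and 1.32 in PIN 1 to 3, and 100.05 and 104.99 in PCa 1 and 2. Both PCa libraries were far above all others, and the WT and PIN ranges overlapped. The reads behind these values were 15 to 32 in WT, 35 to 87 in PIN, and 3109 and 3062 in PCa. The means were 1.14 ± 0.45 (SD, n = 3) in WT, 2.13 ± 0.84 (SD, n = 3) in PIN and 102.5 ± 3.5 (SD, n = 2) in PCa. On the fitted scale PCa stood 6.48 log2 units above WT and 5.58 above PIN, which is 89.4-fold and 47.9-fold. Among the 14033 other genes tested, 74 had a larger fitted rise against WT and 73 against PIN. The log2 difference between the 2 PCa libraries was -0.07 for Gabra4, while the median absolute difference over all tested genes was 0.61. Gabra4 was picked for its rise in both of these libraries. Its rank and this closeness are therefore a description and no test of reproducibility. PIN was 0.90 ± 0.39 (SE) log2 units above WT, which did not pass the test (adjusted p = 1, edgeR quasi-likelihood test with Benjamini-Hochberg adjustment over 14034 genes). Of the 50-base words in its transcripts, 0 were shared with another gene.

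Gabrb1, the beta-1 subunit gene that starts on the other side of the same stretch of chromosome 5, rose with PCa as well. Its levels were 0.20, 0.05 and 0.11 CPM in WT, 0.68, 0.38 and 0.23 CPM in PIN, and 23.8 and 12.8 CPM in PCa. The 2 PCa libraries were above all others, and in WT and PIN no library reached 1 CPM. Counts were 4, 1 and 3 in WT, 19, 11 and 6 in PIN, and 740 and 374 in PCa, so the WT levels lie around 3 counts, taken here as the floor of detection, which was worth 0.0965 to 0.148 CPM. The fitted log2 fold change was 7.24 ± 0.74 (SE) for PCa against WT (edgeR adjusted p = 0.00602). Against PIN it was 5.40 ± 0.67 (SE), with an edgeR adjusted p of 0.0107. From the summed counts alone, the ratio of CPM was 161 for PCa against WT, with an exact 95% interval of 81.4 to 374, and 42.8 against PIN, with an interval of 30.7 to 61.5. Such intervals cover counting error only. PIN lay 1.85 ± 0.65 (SE) log2 units above WT (edgeR adjusted p = 1). Gabrb1 passed the filter on low counts only through the PCa libraries, so a gene with its levels had to differ to be tested at all, and without the filter its edgeR adjusted p was 0.00315 against WT and 0.00736 against PIN. Against PIN the call was lost without PIN 2 (edgeR adjusted p = 0.0522) or PIN 3 (edgeR adjusted p = 0.0541), in a range over all alternatives from 5.18e-14 to 0.0541. Without either PCa library the gene no longer passed the filter.

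Gabra2, an alpha subunit gene of the same cluster, moved the other way. It was measured at 0.64, 0.32 and 1.13 CPM in WT, 4.93, 1.83 and 5.12 CPM in PIN, and 0.06 and 0.03 CPM in PCa. PIN held the highest levels and PCa the lowest, with no overlap between the 3 groups. Only 2 and 1 reads were counted in the PCa libraries, against 7 to 31 in WT and 53 to 137 in PIN. The summed PCa level was 0.0127 of that in PIN, with an exact 95% interval of 0.00261 to 0.0375, and 0.0680 of that in WT, with an interval of 0.0136 to 0.210. The fit gave a log2 fold change of -6.19 ± 0.99 (SE) for PCa against PIN (edgeR adjusted p = 0.0188), and the call was lost without PIN 1 (edgeR adjusted p = 0.0646) or PIN 3 (edgeR adjusted p = 0.0793). For PCa against WT it was -3.70 ± 0.92 (SE), with an edgeR adjusted p of 0.0480, just inside the threshold of 0.05. That call was lost without the filter (edgeR adjusted p = 0.0557), with upper-quartile normalization (edgeR adjusted p = 0.0540) and with the replicate block (edgeR adjusted p = 0.0834). It was also lost when any library but WT 2 was left out, with edgeR adjusted p-values between 0.0593 and 0.131, whereas DESeq2 gave 0.00807. PIN was 2.49 ± 0.66 (SE) log2 units above WT, and its unadjusted p of 0.00609 became an edgeR adjusted p of 1. Gabra2 passed the filter with each PIN library and WT 3 above 1 CPM. It could thus be tested only through its levels in PIN. Without the filter its edgeR adjusted p for PCa against PIN was 0.0183. All 5 smooth muscle markers were called lower in PCa in both comparisons, from 1602 CPM or more to 27.8 CPM or less in sum, and their part in the Gabra2 result was not tested. Of its 2320 50-base words, 11 were shared with other genes.

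Gabrp, the pi subunit gene, was the second most abundant in PCa. Its levels were 6.08, 1.18 and 2.64 CPM in WT, 34.5, 5.17 and 2.03 CPM in PIN, and 50.2 and 73.0 CPM in PCa. Both PCa libraries lay above the other 6, but PIN 1 was much closer to them than PIN 2 and PIN 3 were. The fitted log2 fold change for PCa against WT was 4.23 ± 1.17 (SE), which did not pass the test (edgeR adjusted p = 0.0651). When PIN 1 was left out, the pooled spread became smaller and the value of 4.23 ± 0.74 (SE) did pass (edgeR adjusted p = 0.0343), in a range over all alternatives from 0.0343 to 0.177. For PCa against PIN the value was 2.15 ± 1.09 (SE) with an edgeR adjusted p of 0.292, and 4.11 ± 0.87 (SE) with an adjusted p of 0.0814 without PIN 1. PIN against WT gave 2.08 ± 1.04 (SE) with all libraries (edgeR adjusted p = 1) and 0.12 without PIN 1. DESeq2 gave no adjusted p for this gene in any comparison. The summed level of 4 basal markers was 167 to 216 CPM in WT, 363, 178 and 387 CPM in PIN 1 to 3, and 604 and 27.4 CPM in PCa 1 and 2, and its part in the Gabrp levels was not tested.

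Gabra3, an alpha subunit gene, divided the tumors. It was found at 4.89, 5.21 and 6.37 CPM in WT and 7.16, 11.3 and 7.53 CPM in PIN, whereas PCa 1 had 7.34 CPM and PCa 2 had 0.27 CPM. PCa 1 was thus within the range of the PIN libraries and PCa 2 below all others, with 228 and 8 reads. The log2 difference between the tumors was 4.41, the largest of the 6 members tested. The fitted changes did not pass the test, with -0.53 ± 1.00 (SE) against WT (edgeR adjusted p = 0.773) and -1.18 ± 1.02 (SE) against PIN (edgeR adjusted p = 0.541). With PCa 2 as the only tumor, whose spread was then taken from the other groups, the values were -4.29 (edgeR adjusted p = 0.00468) and -4.94 (edgeR adjusted p = 0.00365). With PCa 1 as the only tumor they were 0.43 (edgeR adjusted p = 0.535) and -0.22 (edgeR adjusted p = 0.814). The same split was seen in the 4 basal markers, at 604 CPM in PCa 1 and 27.4 CPM in PCa 2, and in 5 leukocyte markers, at 97.1 and 13.4 CPM, and their part in the Gabra3 difference was not tested.

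Gabre, the epsilon subunit gene, was measured at 0.79, 0.18 and 1.06 CPM in WT, 1.01, 1.58 and 0.83 CPM in PIN, and 0.64 and 0.27 CPM in PCa. The WT range overlapped both others, while both PCa libraries were below the PIN libraries, and the log2 fold changes of -0.56 ± 0.85 (SE) against WT and -1.30 ± 0.86 (SE) against PIN did not pass the test, with edgeR adjusted p-values of 0.714 and 0.411. Gabrb2, a beta subunit gene, had at most 1 read in a library and 3 reads in all. Gabrg1, a gamma subunit gene, had 0 reads in every library, which allows a level of up to 0.0965 to 0.148 CPM depending on the library. Neither was tested.

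**Figure D1:**
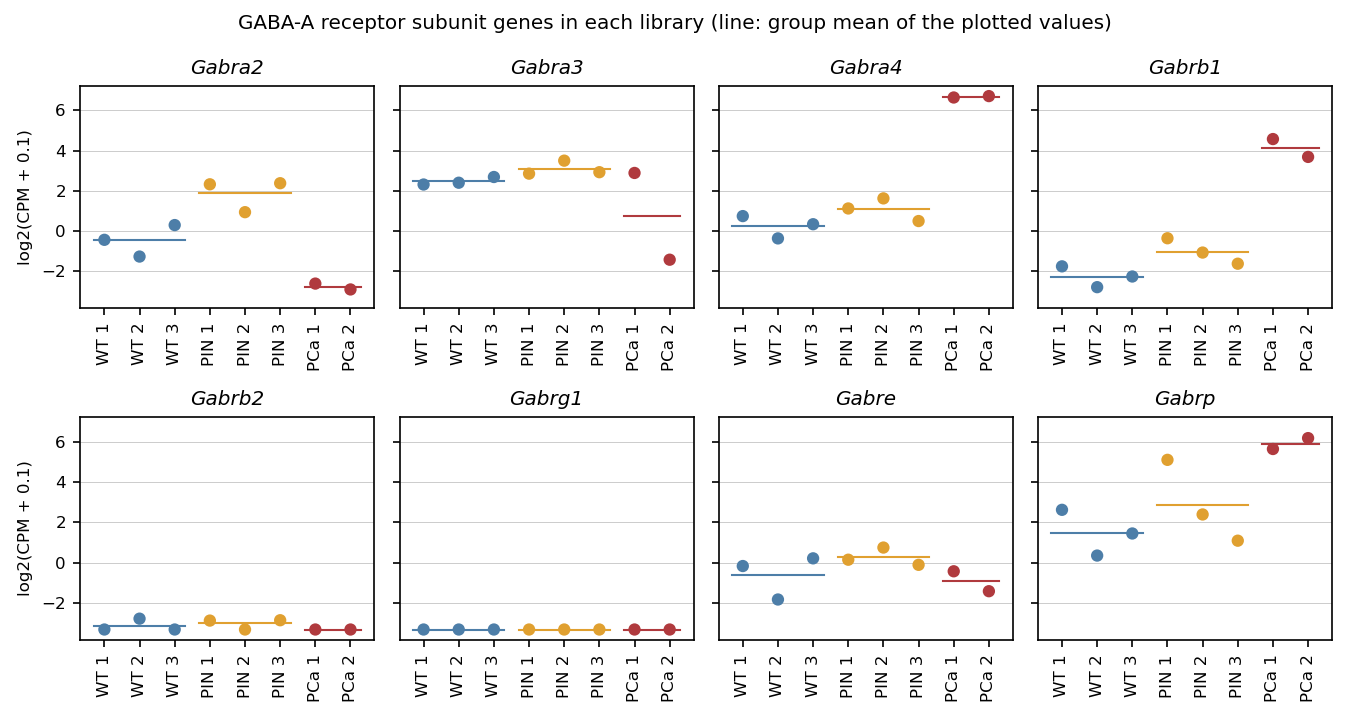
Levels of the 8 members in each library, as log2(CPM + 0.1) on the vertical axis, with WT in blue, PIN in orange, PCa in red and a line at each group's mean of the plotted values. Gabra4 and Gabrb1 are high in both PCa libraries and low in the other 6, Gabra2 is lowest in PCa, and Gabra3 differs between the 2 tumors.

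Genes were tested where 2 or more libraries exceeded 1 CPM, which 6 of the 8 members did, and 5 of these were tested besides Gabra4. In PCa against WT, 2 of the 7 members other than Gabra4 were called, Gabrb1 higher and Gabra2 lower. Of all tested genes 8.54% were called in that comparison, 4.35% higher and 4.18% lower. In PCa against PIN the same pair was called in the same directions, and the share of all tested genes was 5.72%, with 2.55% higher and 3.17% lower. A call needed a change of more than 1 log2 unit in either direction with an adjusted p under 0.05. In PIN against WT, edgeR called 0 members and 0% of all genes, with 492 genes at an unadjusted p under 0.05, while DESeq2 called 39 genes and 0 members. Both PCa comparisons rest on the same 2 PCa libraries. Of the 2 calls among 7 members, Gabrb1 could enter the test only by being high in PCa and Gabra2 only through the PIN libraries. Their number is therefore not support for a change of the family.

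**Figure D2:**
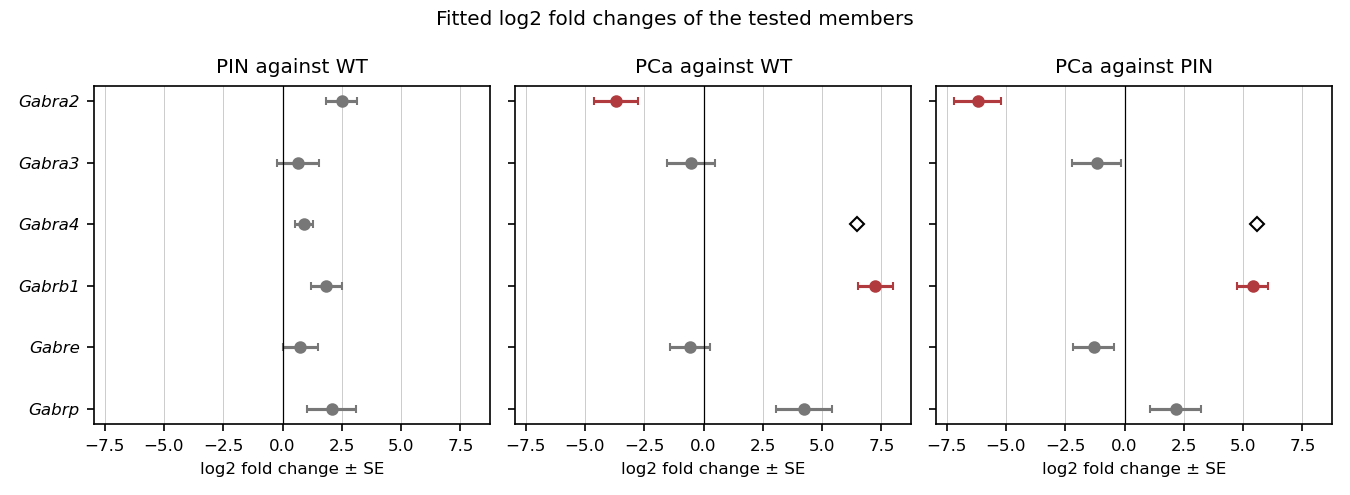
Fitted log2 fold changes with standard errors for the 6 members that were tested, in the 3 comparisons, with called genes in red and others in gray. Gabra4 in the PCa comparisons is an open diamond with no error bar because it was picked for that difference. Gabrb1 lies at 7.24 and 5.40 and Gabra2 at -3.70 and -6.19.

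Other subunit genes of the family that are reported here were low throughout. Gabrd, the delta subunit gene, reached 1.57 CPM in its highest library. Gabra5, Gabra6, Gabrg3, Gabrq, Gabrr1, Gabrr2 and Gabrr3 stayed at or below 0.448 CPM in every library, and Gabra6 and Gabrr3 had 0 reads. None of these 8 genes passed the filter. Among the genes for rho subunits, Gabrr2 was the highest, with at most 9 reads in a library, and Gabrg3, a gamma subunit gene, had at most 2.

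To compare subunits with each other, counts were divided by the summed exon length in the table and scaled to a common sum in each library (TPM). In WT the order of mean TPM was Gabra3 (4.26 ± 1.12, SD, n = 3), Gabrp (3.08 ± 2.45), Gabra2 (0.93 ± 0.64) and Gabra4 (0.86 ± 0.41), among the members. Gabra3 and Gabrp overlapped between libraries, as did Gabra2 and Gabra4. In PIN the mean TPM was 14.2 ± 18.3 (SD, n = 3) for Gabrp, 7.53 ± 2.18 for Gabra3, 5.58 ± 2.52 for Gabra2 and 1.77 ± 0.75 for Gabra4. The first 3 overlapped, and in PIN 3 Gabra2 was ahead of both others. In PCa the order was Gabra4 (92.5 and 101 TPM), Gabrp (56.7 and 85.8), Gabrb1 (29.4 and 16.5) and Gabra3 (7.13 and 0.28), with no overlap between neighbors in the 2 libraries.

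Summed over the 19 subunit genes, the level was 14.2, 6.26 and 14.7 TPM in WT, 54.1, 24.6 and 18.2 TPM in PIN, and 187 and 205 TPM in PCa. Gabra4 made up 49.4% and 49.2% of the PCa sums, Gabrp 30.3% and 41.8%, and Gabrb1 15.7% and 8.02%. In WT libraries Gabra4 was 6.55% to 8.55% of the sum. A single gene, 9530053A07Rik, took 13.1% to 22.1% of all counts in WT and PIN libraries and 0.0114% and 0.00832% in PCa, which lowers the TPM of every other gene in WT and PIN, whereas the CPM values above were adjusted for composition. The ratio of Gabra4 to Gabrb1, which composition cannot change, was 3.14 and 6.13 in PCa, 2.28 to 5.92 in PIN and 5.99 to 11.2 in WT, where Gabrb1 had 1 to 4 reads. Gabra4 was thus the more abundant of the pair in every library, and the PCa ratios lay within the range of the others.

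**Figure D3:**
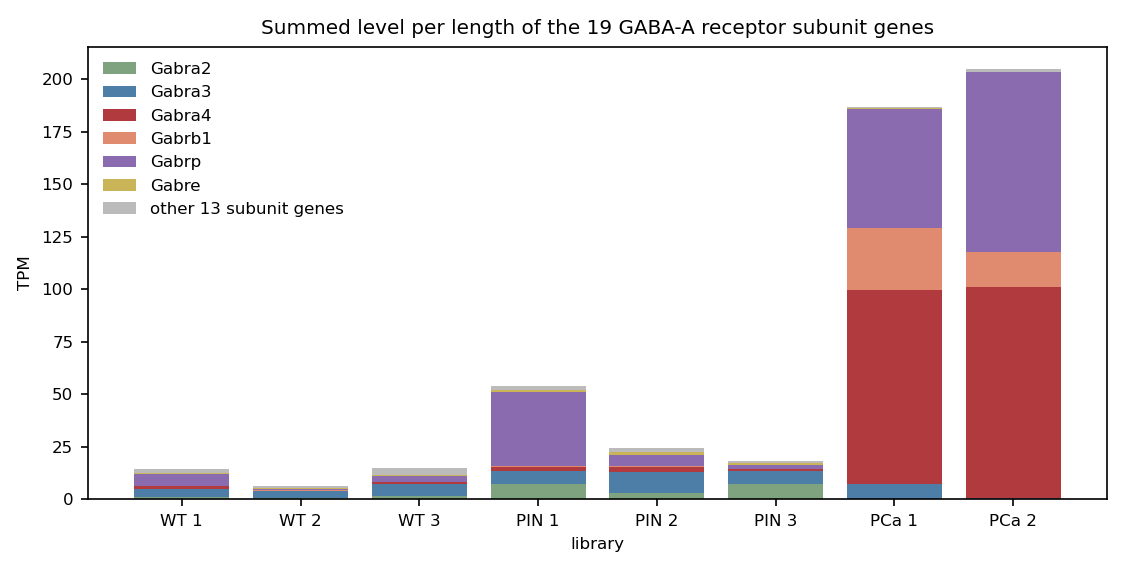
Summed TPM of the 19 GABA-A receptor subunit genes in each library, stacked by gene from 0. The PCa sums of 187 and 205 consist almost entirely of Gabra4, Gabrp and Gabrb1, while the WT sums stay at or below 14.7.

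The change was then followed along chromosome 5. The cluster of 1387 kb held 5 genes of the table, the 4 subunit genes and Cox7b2, a gene for a cytochrome oxidase subunit that lies 110 kb from the start of Gabra4. Cox7b2 had 3 reads in PCa 1, 1 read in PCa 2 and 0 in the other 6 libraries, and was not tested. Outside the cluster, the nearest tested genes beyond Gabrg1 were Gnpda2, an enzyme of hexosamine breakdown, at 0.85 ± 0.24 (SE) for PCa against WT (edgeR adjusted p = 0.0702), and Guf1, a mitochondrial translation factor, at 0.46 ± 0.29 (edgeR adjusted p = 0.357). Yipf7, next to them, had 1 read in all. Beyond Gabrb1, Commd8 stood 0.92 ± 0.19 (SE) log2 units above WT (edgeR adjusted p = 0.0310), below the limit of 1 for a call. Atp10d, a gene for a lipid-flipping ATPase, gave 0.54 ± 0.71 (SE) with an adjusted p of 0.666. Corin, a serine protease gene, was at 1.53, 0.73 and 2.01 CPM in WT and 2.48, 0.59 and 2.11 CPM in PIN, and had 0 reads in both PCa libraries. It was called lower in both PCa comparisons, with edgeR adjusted p-values of 0.0235 and 0.0288. Of the 8 genes with a fitted change in this stretch, Gabra4 and Gabrb1 were higher in PCa by more than 1 log2 unit in both comparisons, and Gabra2 on one side and Corin on the other were called lower.

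**Figure D4:**
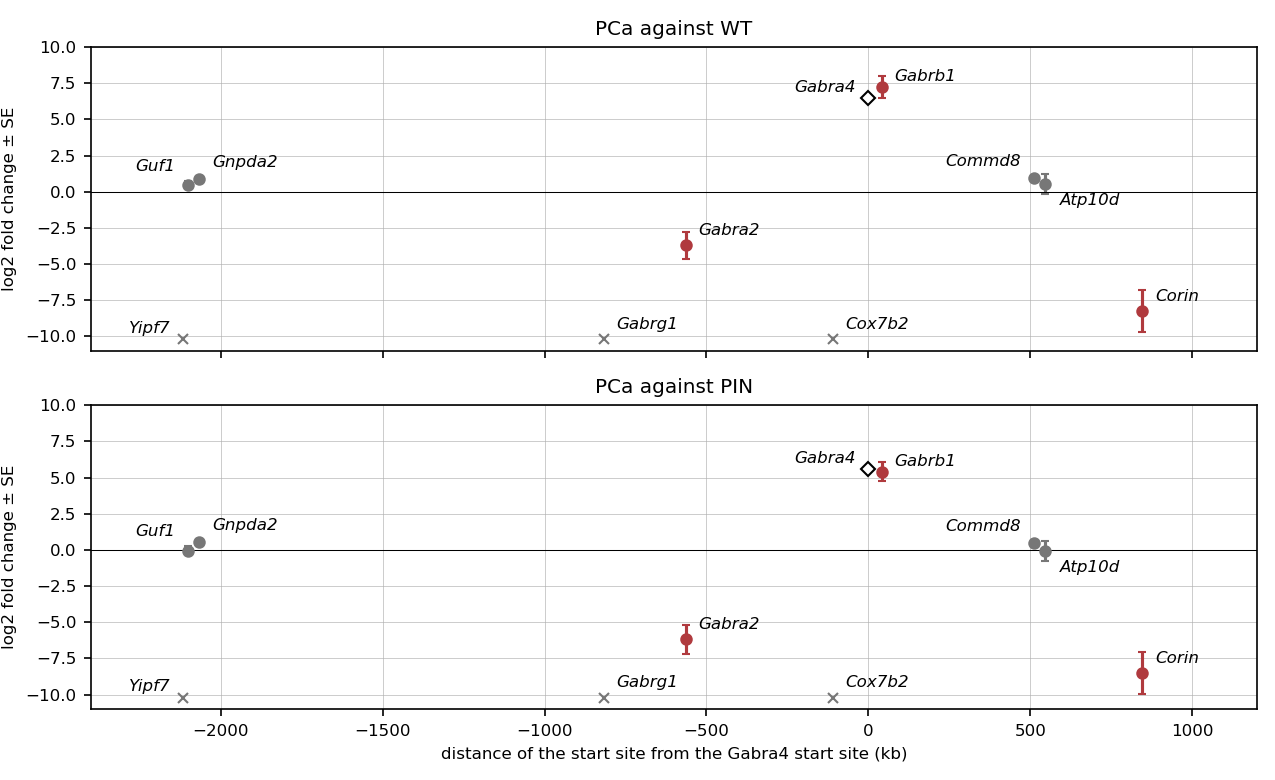
Fitted log2 fold changes with standard errors for the genes of the chromosome 5 cluster and the 3 nearest genes on either side, against the distance of each start site from that of Gabra4 in kb, for PCa against WT (top) and PCa against PIN (bottom). Called genes are red, Gabra4 is an open diamond with no error bar, crosses at the bottom mark genes that were not tested, and the drawn size for Corin, with 0 reads in PCa, depends on the fit. Gabra4 and Gabrb1 lie 41.6 kb apart and have the highest drawn values, while Gabra2 and Corin lie below 0.

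Over the 8 libraries, the tested genes most like Gabra4 in log2 CPM were, in order of Pearson correlation, Sgpl1 (r = 0.9902), Cenpl (0.9899), Lmnb1 (0.9876), Cdca7 (0.9861), Gabrb1 (0.9854), Wbscr25 (0.9846), Atp8b5 (0.9845) and Defa24 (0.9841). Gabrb1 thus ranked 5 among 14033 genes. The 2 values of a pair of genes come from the same 8 libraries, with the same tissue and depth within a library, and they rest on 2 PCa libraries against the other 6, so the correlations are a description only. Sgpl1 encodes sphingosine-1-phosphate lyase, and it was measured at 68.6 to 87.9 CPM in WT, 88.6 to 114 in PIN, and 370.5 and 390.0 in PCa. Lmnb1, a nuclear lamina gene, was at 4.85 to 8.35 CPM in WT, 7.76 to 8.96 in PIN, and 36.4 and 30.8 in PCa. Cenpl is a kinetochore gene and Cdca7 a gene of dividing cells. Defa24 belongs to the alpha-defensin genes, near-identical copies of each other, and its counts of 10.5 and 16.1 CPM in PCa are uncertain for that reason. Among the members, r was 0.847 for Gabrp, -0.24 for Gabre, -0.57 for Gabra3 and -0.72 for Gabra2.

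Genes that make, move and sense GABA were examined next, as a list of 32 genes of which 24 were tested. In PCa against WT, 2 were called higher and 0 lower, a share close to the 8.54% called over all tested genes, and the median log2 fold change was -0.20 against 0.01 over all tested genes. In PCa against PIN, where 5.72% of all tested genes were called, edgeR called 0, with a median of -0.26 against 0.07, and in PIN against WT it called 0, with a median of 0.09 against -0.02. The 2 called genes were Slc6a6, the taurine transporter, and Aldh1a1, an aldehyde dehydrogenase that can make GABA from putrescine. Slc6a6 was at 58.2, 18.8 and 44.6 CPM in WT, 60.1, 77.4 and 68.5 CPM in PIN, and 225 and 159 CPM in PCa, with a log2 fold change of 2.24 ± 0.43 (SE) for PCa against WT (edgeR adjusted p = 0.0236). Aldh1a1 was at 93.5, 22.4 and 82.1 CPM in WT, 383, 150 and 251 CPM in PIN, and 377 and 425 CPM in PCa, with 2.60 ± 0.60 (SE) against WT (edgeR adjusted p = 0.0402). PIN and PCa overlapped for Aldh1a1. Neither gene serves GABA alone.

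The enzymes specific to GABA that are reported here did not rise with the receptor genes. Gad1, which makes GABA from glutamate in neurons, had at most 1 read per library. Gad2, the second glutamate decarboxylase gene, ranged widely, with 22.4, 237 and 1.72 CPM in WT, 13.4, 12.0 and 25.6 CPM in PIN, and 0.03 and 6.03 CPM in PCa. Its log2 fold change of -4.84 ± 2.25 (SE) for PCa against WT did not pass the test (edgeR adjusted p = 0.212). Abat, the transaminase that breaks GABA down, was at 28.3 to 43.9 CPM in WT and 35.0 to 51.6 CPM in PIN, with 18.4 and 2.43 CPM in PCa 1 and 2, which were below all others. Its change of -1.81 ± 0.73 (SE) against WT did not pass (edgeR adjusted p = 0.158). Gabbr1, a GABA-B receptor gene, was at 5.98 to 24.1 CPM in WT and at 11.6 and 27.5 CPM in PCa, a log2 fold change of 0.25 ± 0.59 (SE) with an edgeR adjusted p of 0.821. Gphn, which encodes gephyrin, gave -0.94 ± 0.29 (SE) with an edgeR adjusted p of 0.0812, and both PCa libraries, at 27.9 and 47.6 CPM, were below the WT range of 58.9 to 85.0.

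**Figure D5:**
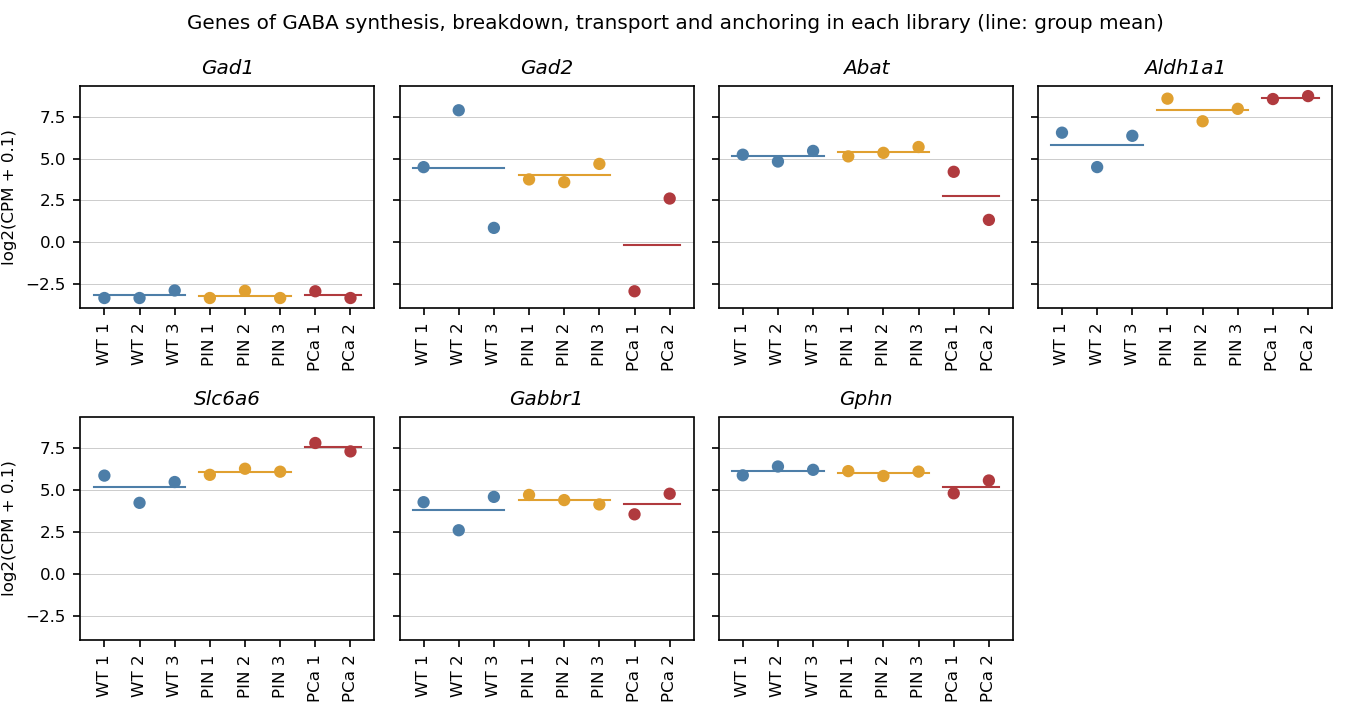
Levels of 7 genes of GABA synthesis, breakdown, transport, GABA-B sensing and receptor anchoring in each library, as log2(CPM + 0.1), with WT in blue, PIN in orange, PCa in red and a line at each group's mean of the plotted values. Slc6a6 is higher in both PCa libraries than elsewhere, and Gad2 varies within WT and within PCa.

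Because most GABA-A subunits are known from neurons, markers of nerve and of hormone-secreting cells were set beside the members. The 14 neuron markers summed to 14.4 to 81.5 CPM in WT, 31.4 to 52.3 CPM in PIN and 5.79 to 19.6 CPM in PCa. Of the 6 neuron markers tested, Rbfox3 was called lower in PCa and the others were not called. Rbfox3, singled out after its values were seen, held most of the sum in most libraries, and the other 13 markers summed to 51.8, 3.76 and 5.67 CPM in WT, 7.02 to 9.003 CPM in PIN, and 4.34 and 19.5 CPM in PCa 1 and 2. Syt1 was at 14.5 CPM in PCa 2, its highest level of all libraries, and at 0.55 CPM in PCa 1. Snap25 and Dbh had 0 reads in both PCa libraries and were at or below 0.151 CPM in the others except WT 1. The 8 neuroendocrine markers summed to 9.09 and 9.53 CPM in PCa against 5.26 to 28.8 CPM in WT and 23.5 to 37.1 CPM in PIN, and 0 of the 3 tested were called. Chga was at 0.93 and 0.03 CPM in PCa and at 0.09 to 1.43 CPM elsewhere. Insm1 had 0 reads in all 8 libraries, and Scg2 had 0 in PCa and at most 0.226 CPM in the others except WT 1. The 5 glia markers summed to 4.38 and 4.63 CPM in PCa and 7.88 to 23.3 CPM in WT. Endothelium markers summed to 12.7 to 85.8 CPM in WT, 69.7 to 94.7 in PIN and 105 to 147 in PCa, fibroblast markers to 521 to 1025, 759 to 986 and 282 to 744, and urothelium markers to 224 to 274, 252 to 373 and 67.1 to 141. The urothelium markers, the uroplakin genes, did not move one way. Upk1b, which held most of the sum in each WT and PIN library, was called lower in PCa against PIN (log2 fold change -3.64, edgeR adjusted p = 0.0487) and was not called against WT (adjusted p = 0.0517). Upk2 was at 8.40 and 72.0 CPM in PCa and at 0.76 to 4.40 CPM elsewhere, and was called higher against WT (log2 fold change 4.15, adjusted p = 0.0428) and PIN (4.97, adjusted p = 0.0361). Seminal vesicle markers were high in both PCa libraries and in WT 1, a library with 1.58 CPM of Gabra4 and 0.20 CPM of Gabrb1. The part of these cell types in the Gabra4 and Gabrb1 levels was not tested. Without WT 1 the log2 fold change for PCa against WT was 6.78 for Gabra4 and 7.77 for Gabrb1 (edgeR adjusted p = 0.0210).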

How the data were processed

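RNA of 3 WT, 3 PIN and 2 PCa libraries was depleted of ribosomal RNA and sequenced as paired ends. The authors trimmed adapters with cutadapt 1.9.1, aligned reads to mm9 with HISAT2 2.1.0 and deposited raw HTSeq 0.6.1 read counts for each gene, with no normalization, beside the exon length of each gene. The annotation release is not given in the sources used here. Groups and replicate numbers were taken from the sample labels. Total counts of 21751803 to 29730420 per library limit the precision of genes with few reads, and 2 PCa libraries limit every comparison with PCa.

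The quasi-likelihood F-test of edgeR 4.0.16 (R 4.3.3) was run on the counts, with TMM library sizes, 3 groups in 1 model with 5 residual degrees of freedom, and Benjamini-Hochberg adjustment over 14034 genes. The filter and both thresholds follow the study's methods. CPM used TMM library sizes, and TPM used the exon length. Log2 CPM for correlations used a prior count of 2. Each standard error is the fitted log2 change divided by the square root of F.

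The members, the GABA list and the marker lists were chosen with earlier results of these data known. Named were all subunit genes, the called genes of the GABA list and some preset ones, the genes in and 3 on either side of the chromosome 5 cluster, and the 8 genes most correlated with Gabra4. Some of these are not reported here. Promoter windows came from RefSeq, and 50-base words were compared between the transcripts of GENCODE vM1. The code was tested on simulated counts. Alternatives were no filter, upper-quartile normalization, DESeq2 1.42.0, only the 2 groups compared, a replicate block, and leaving out each library in turn.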

Additional observations from a re-analysis of the deposited data

How the results depend on the processing

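Of the members other than Gabra4, 2 were called in PCa against WT by edgeR and by DESeq2, and 1 (Gabrb1) with no filter on low counts, with upper-quartile normalization, with only the 2 groups compared and with the replicate block. Leaving out a library gave 0 to 2, with 0 where PCa 2 was left out and 2 where WT 2 (Gabrb1 and Gabra2) or PIN 1 (Gabrb1 and Gabrp) was. With only the 2 groups compared, Gabra2 did not pass the filter in PCa against WT. In PCa against PIN the count was 2 in all 5 of these settings and 0 to 2 with a library left out, with 0 where PIN 3 was left out. Over all genes, 1198 calls in PCa against WT became 2487 with DESeq2, 130 with only the 2 groups compared, 413 with the replicate block, and 347 (without WT 3) to 2477 (without PCa 1) with a library left out. For PCa against PIN, 803 became 1984, 388 and 151 in the same order, and 78 (without PIN 3) to 2251 (without PCa 1). DESeq2 called 39 genes in PIN against WT, where edgeR called 0 in each alternative. For these counts the cause was not tested.

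For Gabra3 in PCa against WT, the log2 fold change of -0.53 ran from -4.29 without PCa 1 to 0.43 without PCa 2, the only reversal. Among the member values with an adjusted p, which leaves out Gabra4 in the PCa comparisons, 172 kept their direction and their side of the threshold under the alternatives, 14 lost a call and 3 gained one. The fitted rise of Gabra4 ranged from 6.22 to 6.78 against WT and from 5.33 to 5.91 against PIN with a library left out. The labels do not say that the replicate numbers pair the samples, and they were not taken to do so. Deviations of libraries with the same number had a mean correlation of 0.0992, with 3 of 7 pairs over 0.1, against -0.0505 and 2 of 14 for different numbers. Deviations from a group mean cancel out within the group, so these means depend on each other. They cannot decide whether the samples are paired. Under the replicate block Gabra2 in PCa against WT was at -3.28 (edgeR adjusted p = 0.0834). Depth limits Gabra2 in PCa, with 3 reads in all, and Gabrb1 in WT, with 8.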
